A study of Mus musculus with 6 samples.

Results

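The genes described here encode the proteins of the cytoplasmic ribosome of the mouse. They were taken from the deposited gene table by symbol. Protein-coding rows named Rps or Rpl followed by a number, with at most a letter a, x or l and a digit behind it, were kept together with the stalk genes Rplp0, Rplp1 and Rplp2 and with Rpsa. The rule found 83 genes among 54532 rows, 32 of the small subunit and 51 of the large subunit, on 19 chromosomes. Genes of mitochondrial ribosomal proteins have other symbols and were not included.

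Whole livers were compared between 3 mice with a hepatocyte-specific deletion of Notch1 (KO) and 3 mice with floxed Notch1 alleles (control, genotype Notch1fl/fl), and no mouse was treated. The study was designed to ask what hepatocyte Notch1 does for thrombopoietin production in the liver. The sources used here give no driver of the deletion, strain, age, sex, litter or cage, so none of these could be taken into account. The p-values weigh the difference between groups against the spread between livers within groups, for these 6 livers only. Levels are FPKM, the fragments counted in a gene divided by its length in kilobases and by a measure of library size. Values are given for livers 1 to 3 of a group in that order, errors are SD over n = 3 livers unless marked SE, and fold changes are KO over control on the log2(FPKM + 1) scale.

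The ribosome is built from a small subunit, which reads the messenger RNA, and a large subunit, which joins amino acids. Most of its proteins are needed in equal numbers, and their messenger RNAs are among the most abundant of any cell. Many begin with a run of pyrimidines at the 5′ end, the terminal oligopyrimidine motif, through which growth signalling by mTORC1 sets their translation. Hepatocytes make most plasma proteins and hold very many ribosomes. Mammalian genomes also hold many processed copies of these genes, most of them pseudogenes.

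The libraries held 15612924, 17511961 and 15807542 reads in genes in KO livers and 16053926, 16795674 and 16809352 in control livers. Notch1 was at 0.301, 0.540 and 0.292 FPKM in KO livers and 0.618, 0.965 and 0.854 FPKM in control livers. The groups did not overlap, but the difference did not pass (log2 fold change -0.40, limma adjusted p = 0.257), and other liver cells keep Notch1. The hepatocyte marker albumin (Alb) was at 29090, 28280 and 20450 FPKM in KO livers and 29980, 37520 and 32760 FPKM in control livers, so the liver label held. KO 2 stood apart in 2 linked summary measures. Its FPKM values summed to 397125, the lowest of the 6 livers, against 432910 to 517132 in the others. The divisor by which the deposited values had been scaled was 1.21 times the geometric mean over libraries in KO 2 and 0.904 to 1.03 times in the others. A larger divisor lowers every FPKM value, so these are not separate signs. The reads in genes of KO 2 were 1.06 times the control mean. Fold changes without KO 2 are therefore given beside many of the genes and lists below.

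The summed level of the ribosomal protein genes was higher in KO 2 than in any other liver, and in the other KO livers it lay within the control range. Their FPKM values summed to 22091, 29455 and 21831 in KO livers and to 22959, 21944 and 19292 in control livers. The mean was 24459 ± 4329 in KO and 21398 ± 1893 in control (n = 3 each), a ratio of 1.14. Without KO 2 the ratio was 1.03, while KO 2 alone stood at 1.38 times the control mean.

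As a share of all reads in genes, the 83 genes held 3.29%, 5.18% and 3.69% in KO livers and 3.35%, 3.26% and 2.98% in control livers. The 95% Wilson interval of the KO 2 share was 5.17% to 5.19%, and those of the other libraries were of like width. These intervals cover counting error only. KO 3 as well as KO 2 exceeded all controls on this scale. A share also depends on the reads of all other genes, and the summed FPKM of KO 3, 21831, lay within the control range. In bulk tissue, fewer cells of a type and less RNA per cell cannot be told apart.

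**Figure D1:**
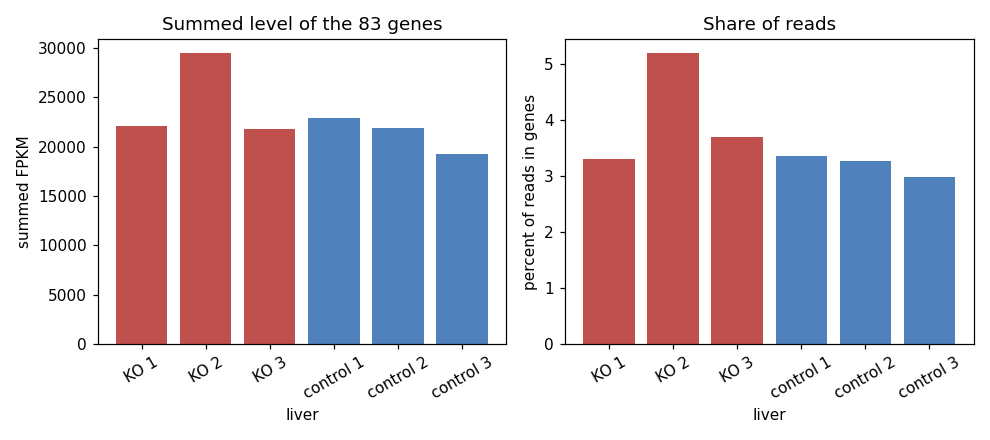
Summed FPKM (left) and percent of reads in genes (right) of the 83 ribosomal protein genes, with a bar for each of 3 KO livers (red) and 3 control livers (blue). KO 2 is the highest bar in both panels, at 29455 FPKM and 5.18% of reads, while the other livers span 19292 to 22959 FPKM and 2.98% to 3.69%.

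Of the 83 genes, 79 averaged at least 0.5 FPKM over the 6 livers and were tested with limma among 12022 genes. None of the 79 passed an adjusted p of 0.05, against a background of 0.025% of all genes tested (3 of 12022). At an unadjusted p under 0.05, 2 ribosomal protein genes were higher in KO and 0 were lower, 2.53% of the 79 for the higher direction. The background was 6.83% higher and 7.06% lower. The groups did not overlap, with KO higher, for 8 of the 79 (10.1%, against 9.20% of all genes tested), and with KO lower for 0 (against 10.6%). The share without overlap and with KO higher was thus close to the background, and the share called higher without adjustment was below it.

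The differences were small and lay mostly on the same side. The KO mean was higher for 74 of 79 (93.7%), against 48.1% of all genes tested. The median log2 fold change was 0.16 over the 79 genes and -0.0081 over all 12022 genes. Without KO 2 the median was 0.018 and 53 of 79 were higher (67.1%, against 49.2%), and 0 passed the threshold, against 0.241% of all genes tested. Small-subunit genes had a median of 0.19 (31 tested, 30 higher) and large-subunit genes 0.15 (48 tested, 44 higher).

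KO 2 was the highest of the 6 livers for 70 of the 79 genes (88.6%, against 22.5% of all genes tested). Control 3 was the lowest for 65 of them (82.3%, against 15.7%). Relative to the control mean of each gene, the median deviation was 0.021, 0.41 and 0.024 on the log2 scale in KO livers and 0.080, 0.043 and -0.13 in control livers. KO 2 was above the control mean for 77 genes, with deviations between -0.19 and 0.91, and by more than 0.25 for 67 (84.8%, against 20.4% of all genes tested). KO 1 was above it for 50 genes and KO 3 for 46. Controls 1 and 2 were above it for 66 and 60 genes and control 3 for 4. Livers of the same genotype thus differed from each other by more than the group medians did.

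Gene by gene, the ratio of KO 2 to the control mean had a median of 1.33 and ran between 0.850 for Rpl21 and 1.91 for Rpl24. It was above 1 for 76 of 79 genes. The ratio of KO 1 and KO 3 to the control mean had a median of 1.01, between 0.600 for Rpl17 and 1.33 for Rps27, and was above 1 for 49. The deviation in KO 2 was of like size in both subunits, with medians of 0.43 for the small and 0.41 for the large.

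**Figure D2:**
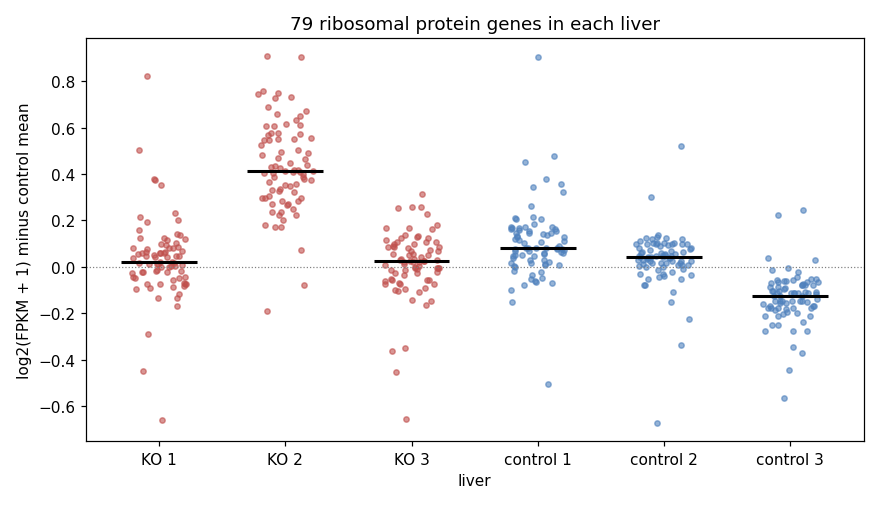
Deviation of each of the 79 tested ribosomal protein genes from its control mean on log2(FPKM + 1), by liver. Each point is a gene, the black line is the median, KO livers are red and control livers blue. The KO 2 median is 0.41 and that of control 3 is -0.13, while the other 4 lie between 0.021 and 0.080.

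Rpl13a, a large-subunit protein also known from translational control in human monocytic cells, was higher in all KO livers and did not depend on KO 2. It was at 12.8, 12.8 and 12.2 FPKM in KO livers and 10.03, 9.07 and 9.85 FPKM in control livers. The KO values lay close together and all above the controls. The mean was 12.6 ± 0.327 in KO and 9.65 ± 0.510 in control (n = 3 each). The log2 fold change was 0.35 with an SE of 0.084 and a 95% interval of 0.16 to 0.55, with an adjusted p of 0.166 from limma. Without KO 2 the fold change was 0.34. The gene lies at chr7:45125558-45128761 on the minus strand of GRCm38.

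Its level was far below that of most ribosomal protein genes, whose mean FPKM had a median of 221 over the 80 genes left after setting aside 3 with overlapping gene models. In the GENCODE M21 annotation, 35.4% of its exon bases lie inside exons of other genes on the same strand, including the model Gm45713, which was listed at 0. Only Rpl24, with 47.0%, and Rps10, with 20.6%, also had over 20% of their exon bases inside such models. Their mean levels over the 6 livers were 3.77 and 0.200 FPKM, and the overlapping models Gm28037 and RPS10-NUDT3 were listed at 0 as well. The sources used here do not state how reads in shared exons were counted, and its part in these levels was not tested.

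Rpl24, which forms a bridge between the subunits, had the smallest p after Rpl13a. It was at 4.16, 5.71 and 3.75 FPKM in KO livers and 3.43, 3.09 and 2.45 FPKM in control livers. The groups did not overlap, and KO 2 was the highest (log2 fold change 0.46, SE 0.16, limma adjusted p = 0.279; 0.32 without KO 2). Near-identical copies held 71.3% of the reads of Rpl24 and its copies together. With those copies the normalized reads were 228, 274 and 212 in KO livers and 247, 219 and 159 in control livers, and the groups overlapped.

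The other genes without overlap between groups were Rps14, Rps3, Rpl9, Rps21, Rps2 and Rpl8, none of them past the threshold. Rps14, needed for maturation of the small subunit, was at 478, 549 and 484 FPKM in KO livers and 447, 412 and 365 FPKM in control livers (log2 fold change 0.31, limma adjusted p = 0.375). Rps3, which lines the entry of the messenger RNA channel, was at 166, 218 and 160 FPKM in KO livers and 137, 157 and 135 FPKM in control livers (0.33, limma adjusted p = 0.392). KO 2 was the top value in both, and without it the fold changes were 0.24 for Rps14 and 0.19 for Rps3. Rps2, also at the entry channel, was at 562, 718 and 553 FPKM in KO livers and 533, 517 and 485 FPKM in control livers, with log2 fold changes of 0.25 with KO 2 and 0.12 without it.

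Large-subunit genes behaved in the same way. Rpl9 was at 145, 175 and 138 FPKM in KO livers and 126, 132 and 121 FPKM in control livers (log2 fold change 0.27, limma adjusted p = 0.399). Rpl8, which sits beside the peptidyl transferase centre, was at 325, 441 and 343 FPKM in KO livers and 297, 318 and 320 FPKM in control livers (0.23, limma adjusted p = 0.534). Again KO 2 stood well above the other KO livers, which were just above the controls. The fold changes without it were 0.16 for Rpl9 and 0.10 for Rpl8. Rps21, of the small subunit, was more even, at 274, 306 and 287 FPKM in KO livers and 270.0, 245 and 208 FPKM in control livers. Its fold change without KO 2 was 0.23, against 0.27 with it.

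**Figure D3:**
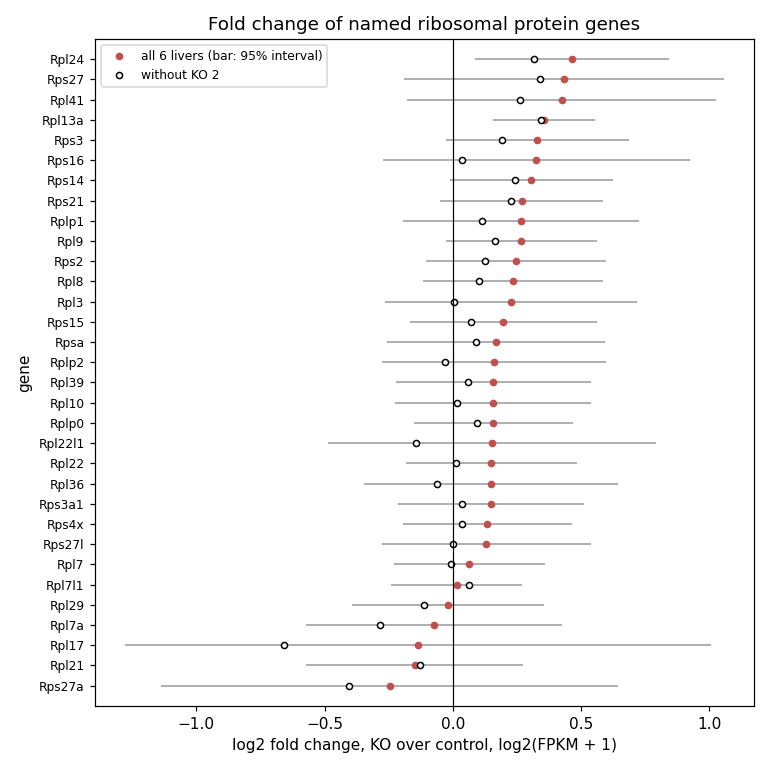
Log2 fold change of KO over control for 32 of the 79 tested ribosomal protein genes, those picked by the rule for named genes with Rps16 and Rpl8, ordered by size, on the log2(FPKM + 1) scale. Filled points use all 6 livers with 95% intervals as bars, and open points leave out KO 2; Rpl13a keeps its place at 0.35 and 0.34, while Rps16 stands at 0.33 and 0.036.

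The ribosomal stalk, formed by Rplp0 with Rplp1 and Rplp2, recruits the factors that drive elongation. Rplp1 had the highest level of all members, at 1722, 2459 and 1848 FPKM in KO livers and 1720, 1791 and 1460 FPKM in control livers. Rplp0 was at 665, 774 and 696 FPKM in KO livers and 640.1, 674 and 599 FPKM in control livers. Both were highest in KO 2 and overlapped between groups (log2 fold changes 0.27 and 0.16, limma adjusted p = 0.592 and 0.643). Leaving out KO 2, the fold changes of Rplp1 and Rplp0 were 0.11 and 0.094. Rplp2 was at 97.7, 152 and 106 FPKM in KO livers and 117, 100 and 95.7 FPKM in control livers, and its difference turned to -0.031 without KO 2. Rpsa, a small-subunit protein also known as a laminin receptor, was at 352, 400 and 328 FPKM in KO livers and 399, 310 and 263 FPKM in control livers (0.17, limma adjusted p = 0.731), with a fold change of 0.091 without KO 2.

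Among the most abundant members, Rpl41, which encodes a very short protein, was at 1393, 1833 and 1222 FPKM in KO livers and 1382, 1168 and 800 FPKM in control livers. It combined the highest value in KO 2 with the lowest in control 3 (log2 fold change 0.42, limma adjusted p = 0.510), and without KO 2 the fold change was 0.26. Rpl36 of the large subunit was at 864, 1270 and 769 FPKM in KO livers and 895, 876 and 789 FPKM in control livers. Without KO 2 its difference was -0.064, against 0.15 with it. Rps3a1 was at 766, 985 and 790 FPKM in KO livers and 802, 778 and 701 FPKM in control livers. Rps15, near the decoding site, was at 729, 952 and 741 FPKM in KO livers and 708, 729 and 661 FPKM in control livers. In each of these genes KO 2 stood above the other 5 livers. The fold changes without it were 0.034 for Rps3a1 and 0.073 for Rps15, against 0.15 and 0.20 with it.

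Rps16, whose tail reaches toward the decoding site, was high in KO 2 alone and was chosen after its values were seen. It was at 408, 776 and 443 FPKM in KO livers and 420, 453 and 375 FPKM in control livers (log2 fold change 0.33, limma adjusted p = 0.611). Without KO 2 the fold change was 0.036. With the reads of its near-identical copies added, the normalized reads were 9743, 18397 and 10596 in KO livers and 9714, 10797 and 8879 in control livers, so the excess in KO 2 was of the same size with copies counted.

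The KO mean was lower for 5 tested genes, none past the threshold. Rps27a, which encodes ubiquitin fused to a small-subunit protein, was at 68.8, 99.1 and 73.1 FPKM in KO livers and 177, 74.3 and 63.4 FPKM in control livers. Control 1 alone set this difference, and without it the fold change was 0.20, against -0.25 with it (limma adjusted p = 0.823) and -0.41 without KO 2. Near-identical copies added little, leaving control 1 at 6041 normalized reads against 2310 to 3736 in the other livers. Rpl21 was at 17.6, 16.4 and 16.7 FPKM in KO livers and 24.8, 18.4 and 14.6 FPKM in control livers (log2 fold change -0.15, limma adjusted p = 0.768). Here control 1 was again the highest, and 53.1% of reads lay in copies.

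The others were small differences with all 6 livers; without KO 2 the fold changes were -0.29 for Rpl7a and -0.11 for Rpl29. Rpl7a was at 51.6, 71.4 and 40.6 FPKM in KO livers and 64.7, 50.2 and 54.0 FPKM in control livers (log2 fold change -0.075, limma adjusted p = 0.913). Rpl29 averaged 282 ± 33.1 FPKM in KO and 287 ± 44.5 FPKM in control (-0.019, limma adjusted p = 0.974).

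Some members varied between livers of the same group far more than others, and several of these have near-identical copies that hold many reads. Rps27, a zinc-finger protein of the small subunit at chr3:90212522-90213651, has an intronless copy, Rps27rt, at chr9:114982366-114982739, and a diverged relative, Rps27l, at chr9:66946086-66949516. The first 90 coding bases of each, from GENCODE M21 transcripts on GRCm38, are shown because the reads of the first pair cannot be told apart within them. Capitals mark bases that differ from Rps27.
Rps27: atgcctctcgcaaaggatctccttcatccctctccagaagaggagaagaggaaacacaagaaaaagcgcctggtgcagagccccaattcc
Rps27rt: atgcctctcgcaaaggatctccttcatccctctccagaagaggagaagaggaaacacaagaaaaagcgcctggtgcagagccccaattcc
Rps27l: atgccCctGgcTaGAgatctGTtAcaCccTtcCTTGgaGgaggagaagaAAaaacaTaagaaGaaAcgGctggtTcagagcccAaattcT
Over the whole coding sequence of 255 bases, Rps27rt differed from Rps27 at 0 bases and Rps27l at 61, with 24 of those in the stretch shown.

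Rps27 was at 307, 266 and 157 FPKM in KO livers and 171, 148 and 206 FPKM in control livers (log2 fold change 0.43, limma adjusted p = 0.516). Its normalized reads were 5302, 4592 and 2703 in KO livers and 2947, 2556 and 3547 in control livers. Those of its near-identical copies, nearly all in Rps27rt, were 574, 1308 and 3157 in KO livers and 3436, 2965 and 1286 in control livers. Where the gene was high its copies were low. The sums were 5876, 5900 and 5860 in KO livers and 6383, 5521 and 4833 in control livers. With copies the coefficient of variation was 0.344% among KO livers and 13.9% among control livers, and for the gene alone it was 32.0% among KO livers and 16.6% among control livers. The diverged relative Rps27l, a target of p53, was at 520, 691 and 538 FPKM in KO livers and 600.4, 538 and 457 FPKM in control livers.

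Rpl17, at the exit of the peptide tunnel, was at 160.3, 477 and 161 FPKM in KO livers and 347, 159 and 296 FPKM in control livers (log2 fold change -0.14, limma adjusted p = 0.934). The highest liver, KO 2, had 3.00 times the lowest, and without it the fold change was -0.66. With its copies the normalized reads were 9184, 11529 and 9505 in KO livers and 10017, 9920 and 8422 in control livers, a range of 1.37 times. Rps10 was nearly absent under its own name, at 13.3, 4.95 and 1.93 normalized reads in KO livers and 6.61, 8.26 and 10.9 in control livers. Its copies, mainly the processed pseudogene Rps10-ps2, held 3879, 4928 and 3602 normalized reads in KO livers and 3768, 3499 and 2729 in control livers. For Rps10, 99.8% of the reads were thus listed under copies, and with them KO 2 was again the highest and control 3 the lowest.

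In all, 636 near-identical copies (at least 95% identity over at least 50% of the copy) were found in the table for 79 of the 83 genes, 619 of them pseudogenes, and 423 had reads. They held 7.31% to 8.31% of the reads of genes and copies together in each liver. Among tested members, 9 had a highest liver of at least 2 times the lowest from their own reads, and 5 with copies added. With copies added, 80 genes could be tested and 78 were higher in KO (97.5%, against 48.2% of all genes tested). Their median log2 fold change was 0.15. None passed the threshold in limma, against 3 of all 12023 genes tested. At an unadjusted limma p under 0.05, 1 of the 80 was called, against 13.9% of all genes tested.

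**Figure D4:**
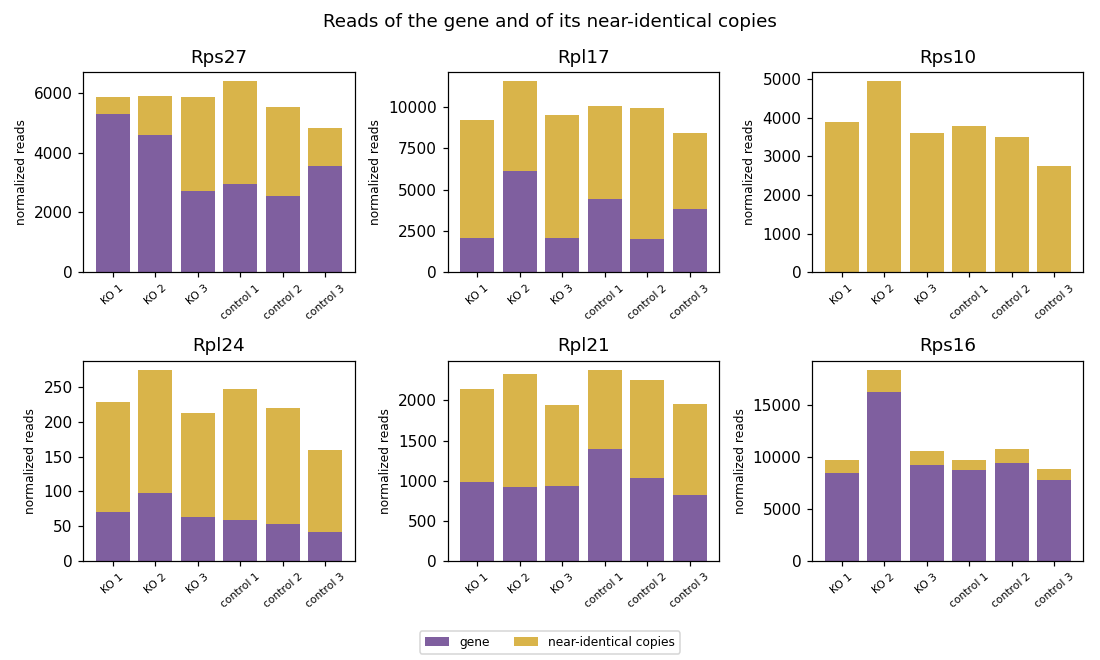
Normalized reads of 6 ribosomal protein genes (purple) with those of their near-identical copies stacked on top (yellow), for each KO and control liver; each panel has its own scale from 0. The stacked bars of Rps27 and Rpl17 are more even than the purple parts, Rps10 lies almost wholly in copies, and the Rps16 bar of KO 2 stands out with copies included.

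Several ribosomal protein genes have a second gene with a related symbol, and only some of these are known from particular tissues. Rpl22 was at 81.8, 109.7 and 82.7 FPKM in KO livers and 83.2, 85.1 and 76.5 FPKM in control livers. Its relative Rpl22l1, which Rpl22 is known to repress in mouse cells, was at 16.7, 35.2 and 20.7 FPKM in KO livers and 18.5, 25.6 and 18.5 FPKM in control livers. Both were highest in KO 2, and control 2 came next. Leaving out KO 2, the fold changes were 0.013 for Rpl22 and -0.14 for Rpl22l1, against 0.15 for each with it. Rpl7l1 was at 23.8, 20.6 and 21.7 FPKM in KO livers and 24.2, 21.1 and 20.2 FPKM in control livers, and in KO 2 it was below its control mean. Its partner Rpl7 was at 258, 289 and 242 FPKM in KO livers and 253, 270.2 and 232 FPKM in control livers.

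The forms known from muscle and testis were at or near the detection limit. Rpl39l, a relative of Rpl39 known from testis, was at 0.161, 0.420 and 0.211 FPKM in KO livers and 0.160, 0.150 and 0.0724 FPKM in control livers. Rpl39 itself averaged 297 ± 37.8 FPKM in KO and 266 ± 39.1 FPKM in control. Rpl3l, the muscle form of Rpl3, was at 0.0407, 0.0304 and 0.0712 FPKM in KO livers and was listed at 0 in the 3 control livers. Rpl10l, the testis form of Rpl10, had 0 reads in all 6 livers, where 3 reads would be the limit that a count of 0 allows. These with Rps10 are the 4 members that failed the filter. Rpl3, Rpl10 and Rps4x, the standard genes, averaged 191 ± 55.2, 477 ± 87.6 and 439 ± 56.4 FPKM in KO and 160 ± 16.7, 424 ± 27.0 and 398 ± 25.8 FPKM in control.

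Promoter sequence was matched by symbol for 63 of the 83 genes in RefSeq on GRCm38.p6. Windows of 30 bases around the annotated start, 15 on each side, are shown for members described above, because the pyrimidine run at the start is the family's known translational signal. Capitals mark a run of at least 8 C or T letters.
Rpl13a, chr7:45128731-45128760, minus strand: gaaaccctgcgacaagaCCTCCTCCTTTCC
Rplp2, chr7:141447636-141447665, plus strand: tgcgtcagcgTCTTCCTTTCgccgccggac
Rps27, chr3:90213634-90213663, minus strand: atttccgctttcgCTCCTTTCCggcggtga
Rpl22l1, chr3:28805493-28805522, plus strand: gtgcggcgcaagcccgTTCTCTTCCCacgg
Rpl7a, chr2:26910792-26910821, plus strand: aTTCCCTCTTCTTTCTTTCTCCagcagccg
Rps16, chr7:28350674-28350703, plus strand: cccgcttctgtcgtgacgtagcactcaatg
Rps3, chr7:99483695-99483724, minus strand: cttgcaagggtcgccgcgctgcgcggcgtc
Rps16 and Rps3 have no such run in the window, at the start RefSeq gives.

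A run was counted where any part of it lay in the 30-base window. For some genes, among them Rpl11, Rpl39 and Rps27l, only a few of its letters lay inside. Counted in this way, the run was present for 31 of 63 matched genes (49.2%), against 5416 of all 27025 genes with a window. A count of runs lying wholly inside the window was not made. The deviation of KO 2 was alike on both sides of this split, with a median of 0.41 over 30 tested genes with the run and 0.43 over 29 without. Within 300-base promoter windows searched on both strands, CCGGAA, the core of ETS-type sites, was present for 55.6% of members and 16.7% of all genes. GGGCGG, the Sp1-type motif, was present for 61.9% and 38.2%, and AAGATGG, the YY1-type motif, for 15.9% and 7.28%. TATAAA was found for 11.1% of members and 15.7% of all genes. These matches describe letters and not occupied sites.

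Lists of genes that work with the ribosome had KO 2 medians on both sides of 0, and no gene in them passed the threshold in limma. Among ribosomal genes that the symbol rule leaves out, 3 of 4 were higher in KO and the median deviation in KO 2 was 0.46. Without KO 2 their median log2 fold change was 0.095, against 0.18 with it. Fau, whose product carries a small-subunit protein, was at 520, 717 and 482 FPKM in KO livers and 521, 502 and 450 FPKM in control livers, with a fold change of 0.030 without KO 2 and 0.20 with it. A list of elongation factors and related genes, among them the inhibitory kinase Eef2k with Tpt1 and Eef1e1, was higher for 9 of 9 (median log2 fold change 0.076), against 48.1% of all genes tested, and 7 were highest in KO 2. Without KO 2, 6 of 9 were higher (median 0.035), and Eef1a1, Eef1d and Tpt1 had fold changes of -0.031, -0.081 and -0.037. Eef1b2, a nucleotide exchange factor of elongation, was at 150, 223 and 155 FPKM in KO livers and 147, 148 and 121 FPKM in control livers (0.33, limma adjusted p = 0.479). For Eef1b2 the groups did not overlap, with KO 2 far above the rest and a fold change of 0.14 without it.

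Initiation factors split into 19 higher and 15 lower of 34, with a median log2 fold change of 0.010 and a KO 2 deviation of -0.028. Eif1, which guides start codon choice, was at 134, 149 and 148 FPKM in KO livers and 199, 175 and 166 FPKM in control livers (-0.32, limma adjusted p = 0.303). Its KO values all lay below the controls. Assembly factors were higher for 24 and lower for 16 of 40, with a median of 0.036 and a KO 2 deviation of -0.054; without KO 2, 26 were higher (median 0.071). Rrs1, an assembly factor of the large subunit, was at 7.15, 8.45 and 9.34 FPKM in KO livers and 13.1, 9.97 and 12.9 FPKM in control livers (-0.47, limma adjusted p = 0.225).

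RNA polymerase I genes were higher for 10 of 14 (median 0.076, and 0.021 without KO 2) and RNA polymerase III genes for 9 of 17 (median 0.0081, and -0.018 without KO 2), against 48.1% of all genes tested. At an unadjusted limma p under 0.05, 0 RNA polymerase I genes were higher and 2 were lower, against 6.83% and 7.06% of all genes tested. Polr1b was lower in KO without overlap (log2 fold change -0.23, limma adjusted p = 0.32). Genes of mTORC1 signalling, the pathway that controls translation of ribosomal protein messages, were higher for 10 and lower for 16 of 26 (median -0.025), and 13 were higher without KO 2. Deptor, an inhibitor of mTOR, was at 16.2, 12.2 and 14.6 FPKM in KO livers and 20.3, 16.6 and 21.5 FPKM in control livers (-0.41, limma adjusted p = 0.279). Castor1 and Lamtor1 of the same list were higher (0.52 and 0.32, limma adjusted p = 0.194 and 0.22), with Castor1 averaging only 0.986 FPKM in KO and 0.392 FPKM in control. In this list 2 genes were higher and 2 lower at an unadjusted limma p under 0.05, against 6.83% and 7.06% of all genes tested. Ribosome quality and stress genes were higher for 6 and lower for 9 of 15 (median -0.014), and 8 were higher without KO 2.

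Noncoding RNAs that host snoRNAs, whose transcripts also start with pyrimidine runs, lay on the other side: 0 of 9 tested were higher and 9 were lower in KO (median -0.12, and -0.24 without KO 2). Snhg5 was at 2.16, 2.19 and 1.96 FPKM in KO livers and 3.24, 3.68 and 3.13 FPKM in control livers. The groups did not overlap and the spread within each was small (log2 fold change -0.48, limma adjusted p = 0.118). Snhg1 and Gas5 had log2 fold changes of -0.28 and -0.23 with limma adjusted p of 0.356 and 0.458.

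In KO 2 the median deviation was smaller for other large complexes than for the cytoplasmic ribosome. Mitochondrial ribosomal protein genes had a median deviation of 0.14 in KO 2 (46 of 77 higher). Of these, 40 were highest in KO 2, against 22.5% of all genes tested. Proteasome genes had -0.020 (18 of 37 higher) and nuclear genes of the respiratory chain 0.086 (29 of 91 higher), the same as in control 2. Other tested genes averaging at least 50 FPKM had a median deviation of -0.17 in KO 2 (893 genes), and those with a gene length under 2000 bases -0.034 (413 genes). The value of 0.41 for ribosomal protein genes was above each of these, as a description of a single liver with no test. The low median of control 3, -0.13 for ribosomal protein genes, was not particular to them. In control 3 it was -0.10 for mitochondrial ribosomal protein genes, -0.12 for the respiratory chain and -0.0435 for proteasome genes. The 413 genes under 2000 bases had -0.10 there, and the 893 genes had -0.0656.

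**Figure D5:**
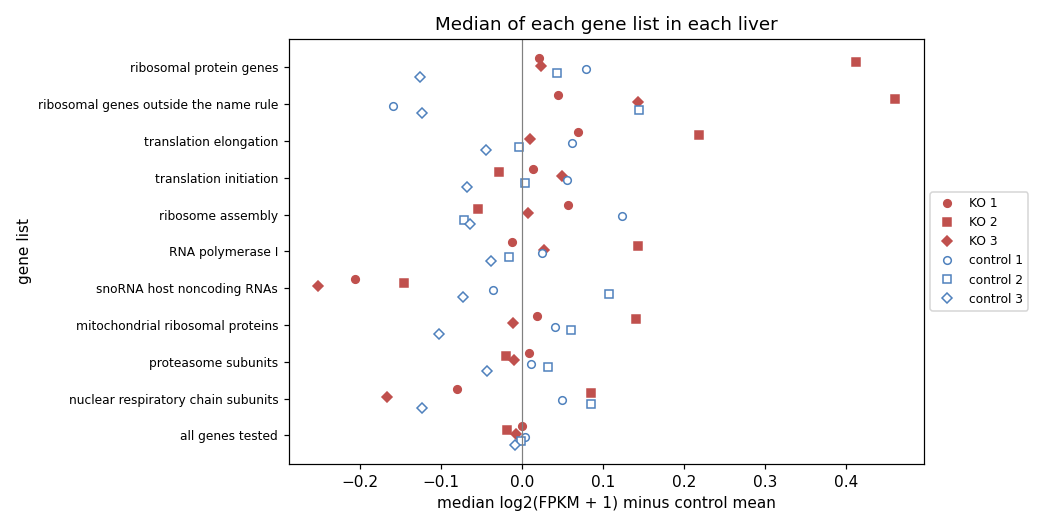
Median deviation from the control mean on log2(FPKM + 1) for ribosomal protein genes and 9 other gene lists, with all genes tested at the bottom. Filled red symbols are KO livers and open blue symbols are control livers; KO 2 (red squares) lies at 0.41 for ribosomal protein genes, 0.46 for ribosomal genes outside the symbol rule and 0.22 for the elongation list, and near the other livers for proteasome genes.

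Markers of other cells also differed between livers, and their part in these results was not tested. Over 5 mesothelial markers, the cells that cover the liver surface, the summed level was 79.1, 136 and 105 FPKM in KO livers and 4.18, 11.1 and 47.0 FPKM in control livers. All 5 had a higher KO mean, the sum was highest in KO 2, and 0 were at 0 in all livers. Over 5 erythroid markers it was 762, 374 and 566 FPKM in KO livers and 928, 756 and 891 FPKM in control livers, lowest in KO 2. The sum over 6 markers of cycling cells was 5.90, 11.6 and 4.78 FPKM in KO livers and 4.26, 10.3 and 3.61 FPKM in control livers, and so was high in control 2 as well as in KO 2.

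Bile duct markers summed to 23.6, 25.7 and 32.8 FPKM in KO livers and 16.1, 12.8 and 14.4 FPKM in control livers. Among them, Krt7 and Krt19 rose over the control livers in the order of the mesothelial sum, with Krt19 at 0.934, 1.58 and 6.68 FPKM. Epcam, at 0.0327 to 0.315 FPKM over the 6 livers, was too low to be tested. Neutrophil markers summed to 20.2, 10.7 and 36.0 FPKM in KO livers and 5.68, 8.50 and 16.0 FPKM in control livers. Stellate cell markers summed to 42.1, 59.2 and 46.2 FPKM in KO livers and 31.9, 34.7 and 54.1 FPKM in control livers. Lymphocyte markers ranged over 3.03 to 4.23 FPKM in KO livers and 3.61 to 4.68 FPKM in control livers. Hepatocyte markers summed to 41130, 42150 and 31100 FPKM in KO livers and 43470, 51600 and 45850 FPKM in control livers, with KO 2 the highest of the KO livers. Macrophage markers ranged over 212 to 288 FPKM in KO livers and 224 to 271 FPKM in control livers, and endothelial markers over 39.6 to 51.1 FPKM in KO livers and 37.2 to 47.4 FPKM in control livers.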

How the data were processed

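The authors deposited 1 table of gene FPKM for 6 mouse livers. Per the submitters' processing notes, HISAT2 2.0.5, featureCounts 1.5.0-p3 and GRCm38 were used; their settings are not stated. Poly-T-selected RNA was made into libraries with a NEBNext Ultra kit, per the labels' protocols. KO columns carry the group's name; columns named NC were taken as controls by elimination. FPKM times gene length gave whole reads (within 0.1 read) for 100% of values above 0, so reads were recovered by a step per library. Normalized reads are these divided by the library's relative divisor.

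Genes averaging at least 0.5 FPKM entered a limma 3.58.1 fit of log2(FPKM + 1) in R 4.3.3 (eBayes with trend, two-sided, Benjamini-Hochberg, threshold 0.05), without a block. A pseudocount of 1 understates the change of low genes. Near-identical copies were found with blastn 2.17.0. Replicate numbers were checked as pairs: deviations correlated at 0.315, 0.164 and 0.101 for same-numbered livers, each over 0.1, and between -0.254 and 0.11 for others; the labels state no pairing. The members, gene lists and named genes were chosen with earlier results of these data known: named genes were Notch1, the stalk genes and Rpsa, the 8 smallest p per direction, the 5 most abundant, the 3 closest to no change, paralogs with partners, and 3 genes per list; some are not reported here. Alternatives were pseudocounts, filters, scalings, weights, eBayes settings, the block and leaving out each liver; adding the reads of copies was chosen after the data were seen.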

Additional observations from a re-analysis of the deposited data

How the results depend on the processing

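In each of 19 alternatives 0 ribosomal protein genes passed the threshold, with a smallest limma adjusted p of 0.132 to 0.384. At an unadjusted p under 0.05, limma called 1 to 7 of them, against 9.62% to 16.1% of all genes tested. The 7 came with quantile normalization, where 79 were tested and the share of all genes was 13.9%. The count of all genes called, 3 in the reported fit, was 1 with a pseudocount of 0.1, 0 with no filter, 5 with values rescaled to equal library totals, 15 with limma voom on recovered reads and 0 with the replicate block. It was 0 to 58 when single livers were left out, with 29 without KO 2 and 58 without control 3. The replicate block changed no call among the ribosomal protein genes. Replicate numbers are balanced over the groups, so the block cannot move a fold change, and the median log2 fold change of these genes stayed at 0.16 by design. That median was 0.018 to 0.23 when single livers were left out, with 0.018 without KO 2 and 0.098 without control 3. Rescaling to equal totals moved the median of all genes tested by more than 0.1, to 0.12 with 70.8% of genes higher; the ribosomal protein genes then had 0.31, with 77 of 79 higher. Quantile normalization gave 0.26 and array weights 0.090.

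The sign turned for Rpl7a at 0.026 with quantile normalization, 0.073 rescaled to equal totals and 0.031 with copies added, and for Rpl29 at 0.083, 0.13 and 0.014. Rpl17 turned to 0.013 rescaled and 0.089 with copies. Leaving out single livers gave fold changes of -0.66 to 0.13 for Rpl17, -0.32 to 0.040 for Rpl21, -0.14 to 0.37 for Rpl22l1 and -0.14 to 0.089 for Rpl29. They were -0.064 to 0.30 for Rpl36, -0.0057 to 0.12 for Rpl7, -0.29 to 0.11 for Rpl7a, -0.041 to 0.088 for Rpl7l1, -0.031 to 0.28 for Rplp2 and -0.53 to 0.20 for Rps27a. Among refitted fold changes of single genes 25 changed sign and 1074 kept their sign and call. The eBayes settings and the block cannot move a fold change, so only the call could differ in those refits. The cause of sign changes was not tested. With 3 livers per group, differences of the size seen here may stay under the threshold, and genes with copies or overlapping models carry read assignment of unknown setting.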
